A study of Bos taurus with 129 samples.

Results

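The genes described here are 9 protein genes of bovine mitochondrial DNA, COX1, COX2, COX3, CYTB, ND1, ND2, ND4, ND5 and ATP6, in 4 tissues of dairy cows, the conceptus, the endometrium, the corpus luteum and the mononuclear cells of peripheral blood (PBMC). They were taken by name: each is the row of that name in the count tables of the second experiment (E2), 9 of 35158 distinct gene names, and the same names were read from the 24616 rows of the first experiment (E1). They are 9 of the 13 mitochondrially encoded protein genes, the other 4 being ND3, ND4L, ND6 and ATP8. The genes were proposed from their values in the E2 libraries, so the E2 values of these genes are given as a description without a test, and the tests of them come from E1.

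Mitochondrial DNA is a small circle carried in many copies per cell, and its protein genes all encode core subunits of the respiratory chain and of ATP synthase. Both strands are transcribed as long precursors that are cut, largely at the transfer RNAs between the genes, into messenger RNAs that receive short poly(A) tails, so that the level of each messenger depends on its own stability as well as on transcription. All other subunits of these complexes, all of complex II, and the proteins that copy, transcribe and translate mitochondrial DNA are encoded in the nucleus. ND1, ND2, ND4 and ND5 belong to complex I (NADH dehydrogenase), CYTB to complex III, COX1, COX2 and COX3 to complex IV (cytochrome c oxidase) and ATP6 to complex V (ATP synthase). In the mitochondrial sequence (MT) of the E1 tables, ND1 lies at 3101 to 4056, ND2 at 4266 to 5307, COX1 at 5687 to 7231, COX2 at 7374 to 8057 and ATP6 at 8290 to 8970. COX3 follows at 8970 to 9750, ND4 at 10529 to 11906, ND5 at 12109 to 13929 and CYTB at 14514 to 15653.

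RNA was sequenced from tissues of cows that the labels place at day 16, just before the conceptus implants, to set normal pregnancies (N) beside pregnancies in which the embryo was failing (embryo mortality, EM) and beside cows that carried none (non-pregnant, NP). The conceptus cows of E2 were lactating multiparous Holsteins, were synchronised, received semen of the same sire by timed insemination, and were called N when the conceptus was elongated and translucent and EM when it was short, discoloured or opaque, so that EM and N conceptuses differ in size and appearance by definition. The sources used here do not say how the E1 cows and the NP cows were managed, nor from what their day 16 was counted. E2 holds 9 N and 6 EM conceptuses, and 9 N, 6 EM and 7 NP libraries each of endometrium, corpus luteum and PBMC. E1 holds 8 N and 4 EM conceptuses, 8 N, 4 EM and 7 NP endometria, and 7 N, 3 EM and 5 NP PBMC libraries. The libraries of a group are separate samples by their labels, and p-values measure the spread between these samples.

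Counts per library ran from 10532188 to 24482117 in E2 and from 106785 to 14932407 in E1. The E1 EM conceptuses S5 and S4 were shallow, with 106785 and 224034 counts. The PBMC library S47 (E1, NP) had counts for 9544 genes and a summed leukocyte marker level of 232 CPM (counts scaled to a library total of 1000000). The other assigned PBMC libraries of E1 held at least 4254 CPM. The 13 mitochondrially encoded protein genes took 97.6% of the counts of S47, which lowers the CPM of all its other genes. Its marker level is therefore no measure of the leukocyte part of its other RNA. In the corpus luteum, the summed luteal steroidogenic markers were 539 CPM in S109 (NP) and 6545 CPM in S121 (EM), against 33820 to 48078 CPM in N. In the E1 endometrium S31 (NP) held 3485 CPM of trophectoderm markers against 236 to 686 CPM in the others. The same library held 11936 CPM of endometrial epithelium markers against 308 to 2880 CPM. Its stroma and endothelium markers summed to 7017 CPM against 20345 to 50434 CPM. The trophectoderm list includes the keratin genes KRT8, KRT18 and KRT19, and the source of its level in S31 was not tested. The values given here include these libraries unless a sentence says that they were left out.

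In the E2 conceptuses, the 9 genes together took more of the counts of every EM library than of any N library. Their share was 6.45%, 8.76%, 11.95%, 13.7%, 20.8% and 27.2% of the counts in the 6 EM libraries, with a mean of 14.8% ± 7.82 (SD, n = 6). In the 9 N libraries it ran from 1.09% to 5.35% with a median of 2.36% and a mean of 2.99% ± 1.68 (SD, n = 9). The groups did not overlap, although the gap between the highest N and the lowest EM library was small beside the spread within EM, and the ratio of the means was 4.95. Leaving out each library in turn gave ratios from 4.13 to 5.51.

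**Figure D1:**
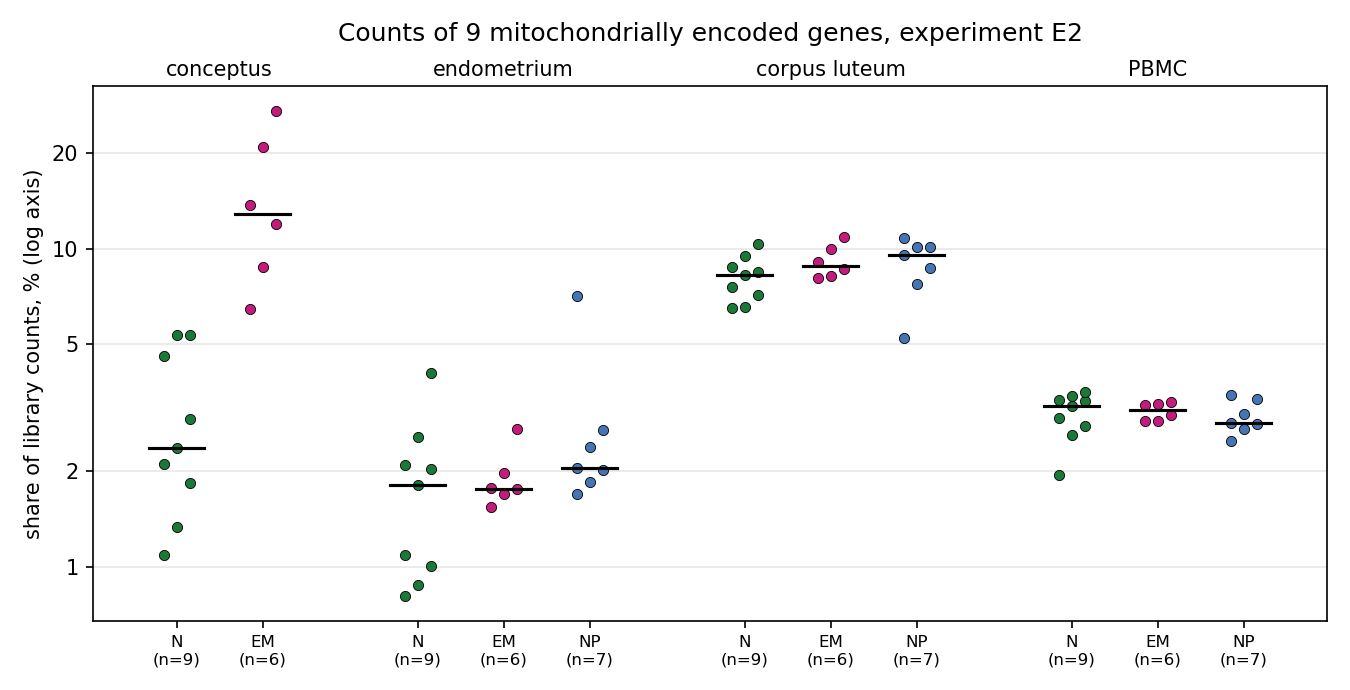
Share of library counts taken by the 9 genes (percent, log axis) in each E2 library by tissue and pregnancy status. Points are libraries and bars are group medians. The 6 EM conceptuses lie between 6.45% and 27.2%, above all 9 N conceptuses, while the groups of each maternal tissue overlap.

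The E1 conceptuses, which the choice of the genes did not use, separated the same way. The 4 EM libraries stood at 16.5% (S2), 17.7% (S4), 44.6% (S3) and 65.8% (S5), and the 8 N libraries ran from 5.38% to 11.6% with a median of 7.75%. The groups did not overlap, the means were 36.2% ± 23.7 (SD, n = 4) and 8.05% ± 2.01 (SD, n = 8), and the highest EM value was that of the shallowest library. Levels cannot be set side by side between experiments, since E1 was read as 100 bp pairs and E2 as 75 bp single reads and the tables come from different genome builds. In edgeR's quasi-likelihood test over all genes of E1, 9 of 9 genes rose in EM, against 25.4% of the 11211 genes tested called higher and 47.1% called in either direction, and 9 of 9 were still called without S4 and S5 and with each library left out in turn.

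**Figure D2:**
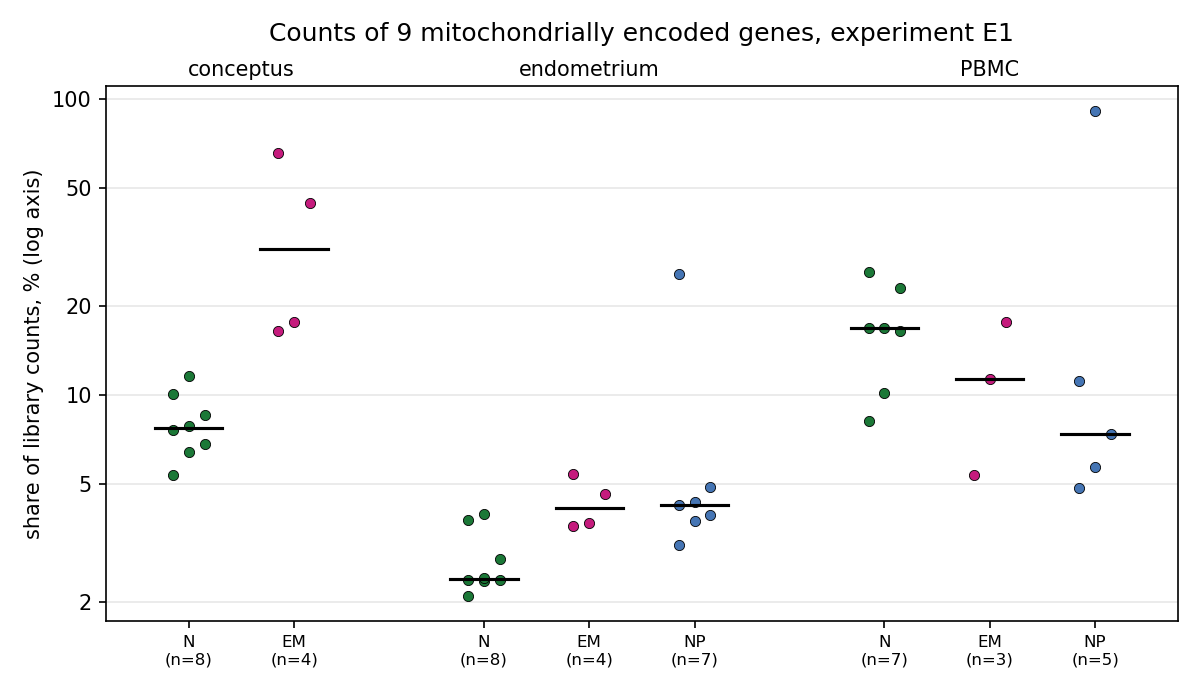
Share of library counts taken by the 9 genes (percent, log axis) in each E1 library by tissue and pregnancy status. Points are libraries and bars are group medians. The 4 EM conceptuses lie between 16.5% and 65.8% and the 8 N conceptuses between 5.38% and 11.6%, and 1 NP library each of endometrium (25.7%) and PBMC (91.6%) stands apart.

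Markers of other cell types also differed between EM and N conceptuses. In E2, 19 of 20 leukocyte markers were higher and 1 lower in EM, with a summed level of 477 to 3880 CPM against 13.03 to 74.8 CPM in N, and 10 of 10 endometrial epithelium markers tested were higher, at 5659 to 12419 CPM against 24.1 to 1624 CPM (PAEP, a defining marker, was at 0 in all 6 EM libraries). Stroma and endothelium markers summed to 91.2 to 1639 CPM in EM against 17.3 to 78.5 CPM in N, with 7 higher and 1 lower of 10 tested, and erythrocyte and platelet markers to 15.8 to 517 CPM against 3.004 to 26.99 CPM, with 4 higher of 5. Trophectoderm markers, which identify the outer layer that makes up most of a conceptus at this stage, summed to 1502 to 50278 CPM in EM against 81002 to 101585 CPM in N, with 14 of 15 lower and 1 higher. The EM library with the highest trophectoderm level, S55, had the lowest 9-gene share, whereas the lowest trophectoderm level, in S49, went with a share of 11.95%, the fourth highest of the 6. In E1, 13 of 13 leukocyte markers tested rose, at 817 to 1441 CPM in EM against 18.2 to 132 CPM in N, and 11 of 13 trophectoderm markers fell, at 4729 to 31227 CPM against 37403 to 57606 CPM. Of the endometrial epithelium markers 7 of 8 rose, at 796 to 4289 CPM in EM against 29.6 to 195 CPM in N, and of the stroma and endothelium markers 8 of 10, at 551 to 1120 CPM against 19.6 to 73.2 CPM. The erythrocyte and platelet markers, of which 4 of 4 rose, summed to 42100 CPM in S3, 3089 CPM in S4, 290.3 CPM in S5 and 118.4 CPM in S2, against 5.89 to 44.2 CPM in N. The EM library highest in these blood markers, S3, had the second highest 9-gene share (44.6%). The highest share was in S5, where the 13 mitochondrially encoded protein genes took 70.4% of the counts. CPM is taken over all counts, mitochondrial ones included, so this lowers every marker level of S5. The marker levels of S5 are therefore not set beside its share. They include the lowest trophectoderm and endometrial epithelium levels given for EM in E1. In S3 the same 13 genes took 47.1% of the counts, so its marker levels are lowered too. Over all genes, 38% were called higher and 27.7% lower in E2, and 25.4% and 21.7% in E1. A marker low in N reached the minimum count for testing only if EM libraries held enough of its counts. Listed markers below that minimum were not tested, so the numbers of markers called higher are descriptions. The part of these cells in the result was not tested. In bulk samples a change in the cells present and a change in RNA per cell cannot be told apart.

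The complex I genes carried both the largest and the smallest of the E2 ratios. ND1, which forms part of the quinone-binding region of complex I, took 0.581% to 2.65% of the counts in EM with a median of 1.42%, and 0.0462% to 0.311% with a median of 0.102% in N. The groups did not overlap and the ratio of the means was 9.27. Here and below, the share of all genes whose groups did not overlap is not given, so the separation of a gene is a description. Over all genes, 65.7% were called in either direction in E2 and 47.1% in E1. ND2, a proton-pumping subunit of the membrane arm, took 0.285% to 1.59% with a median of 0.786% in EM and 0.0295% to 0.229% with a median of 0.0940% in N, again without overlap and with a ratio of 7.24. ND4 and ND5, the outer pumping subunits, differed less: ND4 had a ratio of 4.38 with 5 of 6 EM libraries above the highest N library, and ND5 a ratio of 3.12 with 4 of 6. ND5 took 0.0983% to 0.936% with a median of 0.279% in EM and 0.0312% to 0.215% with a median of 0.0979% in N.

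In E1, ND1 took 1.34%, 1.59%, 3.31% and 5.11% of the counts in the 4 EM libraries and 0.328% to 0.721% with a median of 0.450% in N. These groups did not overlap, and ND1 rose by a log2 fold change of 3.12 ± 0.42 (SE; edgeR adjusted p = 1.79e-05). ND2 rose by 2.75 ± 0.42 (edgeR adjusted p = 8.07e-05) and ND4 by 2.69 ± 0.44 (edgeR adjusted p = 0.000133), each without overlap of the shares. ND5 took 0.353%, 0.446%, 1.43% and 2.19% in EM and 0.140% to 0.473% in N, so 2 of 4 EM libraries lay within the N range, and its log2 fold change was 2.69 ± 0.50 (edgeR adjusted p = 0.000440). Without the shallow libraries S4 and S5 the log2 fold changes of ND1, ND2, ND4 and ND5 were 2.55, 2.04, 2.02 and 2.03, all still called.

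CYTB is the only mitochondrially encoded subunit of complex III and holds its heme b groups. In E2 it took 0.334% to 1.63% of the counts in EM with a median of 0.705% and 0.0704% to 0.569% with a median of 0.229% in N. The groups overlapped, with 4 of 6 EM libraries above the highest N library and a ratio of means of 3.17. In E1 it took 0.949%, 1.60%, 3.88% and 6.14% in EM and 0.536% to 1.14% in N, with the library S2 within the N range, and rose by a log2 fold change of 2.57 ± 0.46 (SE; edgeR adjusted p = 0.000346), or 1.83 without S4 and S5.

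COX1, the catalytic subunit of complex IV that binds oxygen, had the largest share of the 9 genes. It took a median of 5.57% of the counts in the E2 EM conceptuses against 1.11% in N, with no overlap and a ratio of means of 5.30. COX2, which receives electrons from cytochrome c, took 0.674% to 1.88% in EM and 0.0810% to 0.407% in N, also without overlap (ratio 5.33). COX3, a core subunit without a redox centre, took 1.01% to 3.25% with a median of 1.46% in EM and 0.225% to 1.06% with a median of 0.381% in N. Its ratio was 3.63, and the EM library S55 lay below the highest N library, S56.

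The E1 libraries gave COX1 shares of 6.34%, 6.65%, 17.8% and 24.4% in EM and 1.87% to 4.28% with a median of 2.91% in N. COX1 rose by a log2 fold change of 2.77 ± 0.43 (SE; edgeR adjusted p = 9.10e-05), COX2 by 2.67 ± 0.41 (edgeR adjusted p = 8.31e-05) and COX3 by 2.48 ± 0.39 (edgeR adjusted p = 0.000102). None of the 3 overlapped between the groups, for which no share over all genes is given. Without S4 and S5 their log2 fold changes were 2.25, 2.01 and 1.94, all still called.

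ATP6, which forms part of the proton channel of ATP synthase, took 0.709% to 2.27% of the counts with a median of 1.01% in the E2 EM conceptuses and 0.0891% to 0.538% with a median of 0.173% in N. The groups did not overlap and the ratio of means was 5.05. In E1 it took 1.31%, 1.62%, 4.04% and 6.46% in EM and 0.457% to 0.935% in N, and rose by a log2 fold change of 2.95 ± 0.44 (SE; edgeR adjusted p = 6.41e-05), or 2.26 without S4 and S5.

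The other 4 mitochondrially encoded genes were read in the same libraries. ATP8, whose reading frame overlaps that of ATP6, did not overlap between EM and N in either experiment, with ratios of mean shares of 4.83 in E2 and 6.83 in E1. ND3, ND4L and ND6 had E2 ratios of 2.49, 4.23 and 2.75, each with overlapping groups. In E1 the log2 fold changes were 3.39 for ATP8, 2.79 for ND4L, 2.45 for ND6 and 2.04 for ND3, and 4 of 4 were called. ATP6 and ATP8, and ND4L and ND4, share bases, and ND5 and ND6 overlap on opposite strands. The library kit keeps the strand, but no source used here gives the strand setting of the counting, so reads at these overlaps cannot be assigned to 1 gene.

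In the edgeR fit of the E2 conceptuses, given as a description, the log2 fold change of EM against N was 2.99 for ND1, 2.64 for ND2, 2.20 for COX1, 2.19 for COX2, 2.12 for ATP6, 1.90 for ND4, 1.63 for COX3, 1.43 for CYTB and 1.39 for ND5. This order runs close to the order of the genes along the mitochondrial sequence, from ND1 near the start of the heavy-strand transcript to CYTB at its end. Across the 9 genes the position of the start and the log2 fold change had a Pearson r of -0.93 and a Spearman rho of -0.97 in E2. In E1 the values were -0.63 and -0.67, and over all 13 genes -0.87 and -0.86 in E2 and -0.45 and -0.55 in E1. The genes share libraries, precursor transcripts and scaling factors and are not independent points, so these values are descriptions. In the E2 fit 9 of 9 genes passed the threshold, beside 38% of the 15642 genes tested that were called higher and 65.7% called in either direction, from which nothing is read because the genes were chosen on these libraries. The count was 8 without S53 and 7 without S58.

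**Figure D3:**
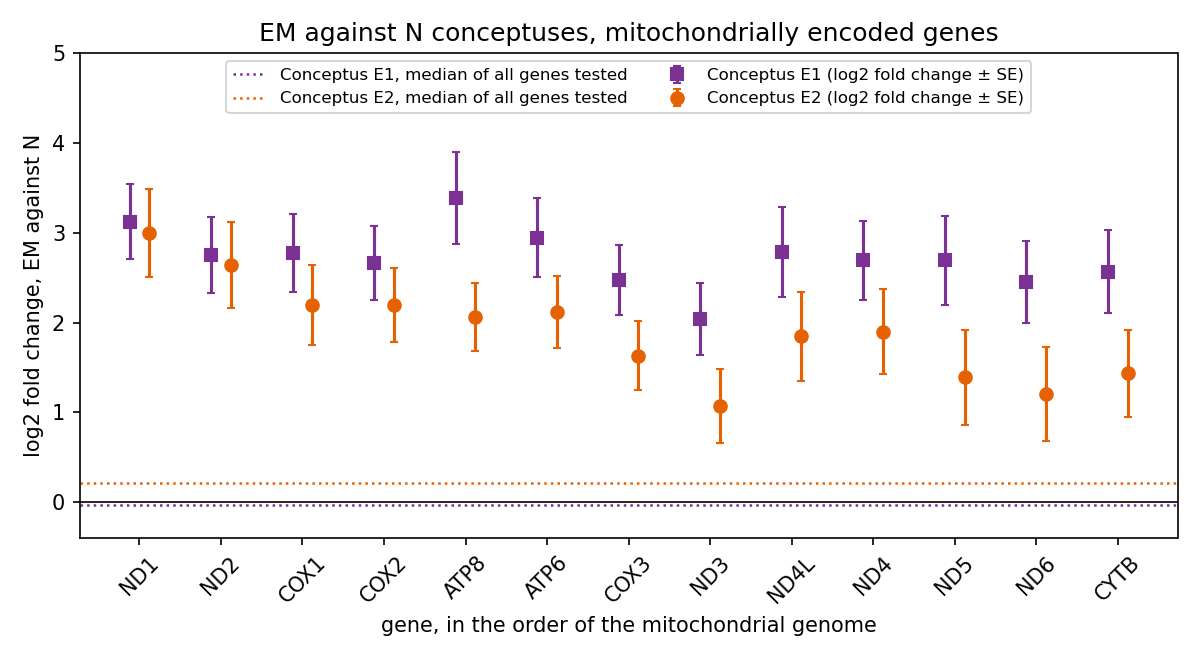
Log2 fold change ± SE of EM against N conceptuses for the 13 mitochondrially encoded genes in the order of the mitochondrial genome, in E1 (squares) and E2 (circles), with dotted lines at the median of all genes tested. ND1 stands at 3.12 in E1 and 2.99 in E2, and CYTB at 2.57 and 1.43.

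The make-up of the 9-gene total also differed between EM and N conceptuses. ND1 took 9.71% ± 1.17 (SD, n = 6) of the 9-gene counts in E2 EM conceptuses and 4.85% ± 0.934 (SD, n = 9) in N, without overlap, and 8.09% ± 1.03 (SD, n = 4) against 5.90% ± 0.406 (SD, n = 8) in E1, also without overlap. COX1 kept a like share of the total, at 42.5% and 40.5% in E2 and 38.3% and 36.9% in E1, with overlapping groups. COX3 took 12.3% in EM and 17.5% in N in E2, and 13.4% and 15.4% in E1, with overlap in both.

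A ratio of 2 genes within a library does not change with the total of the library. COX3 had 98.1 to 174 counts per 100 ND1 counts in the 6 E2 EM conceptuses, with a median of 123.5, and 183 to 595 with a median of 364 in the 9 N conceptuses. In E1 the EM values were 148, 157, 175 and 185, and the N values ran from 222 to 294. The groups did not overlap in either experiment, the ratio of the EM to the N mean was 0.340 in E2 and 0.633 in E1, and leaving out each library gave 0.316 to 0.366 and 0.609 to 0.657. CYTB per 100 ND1 counts also separated the groups, at 58.9 ± 15.9 (SD, n = 6) in EM and 175 ± 24.9 (SD, n = 9) in N in E2 and at 104.2 ± 29.6 (SD, n = 4) and 169 ± 10.3 (SD, n = 8) in E1. ND5 per 100 ND1 counts overlapped, at 13.7 to 48.97 in EM and 40.4 to 124.3 in N in E2.

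The maternal tissues of E2 lay nearer to the EM than to the N conceptuses in this ratio. COX3 per 100 ND1 counts was 88.8 to 187 in the endometrium, 100.1 to 160 in the corpus luteum and 112.1 to 216 in PBMC over all libraries of E2. The E1 endometrium held 77.4 to 140 (131.4 without S31). The PBMC of E1 did not share this pattern and ran from 199 (204.9 without S47) to 714. All its assigned libraries were above the E1 EM conceptuses (148 to 185), and some were above the E1 N conceptuses (222 to 294). Whether maternal cells among the EM samples contribute to the EM ratio was not tested.

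**Figure D4:**
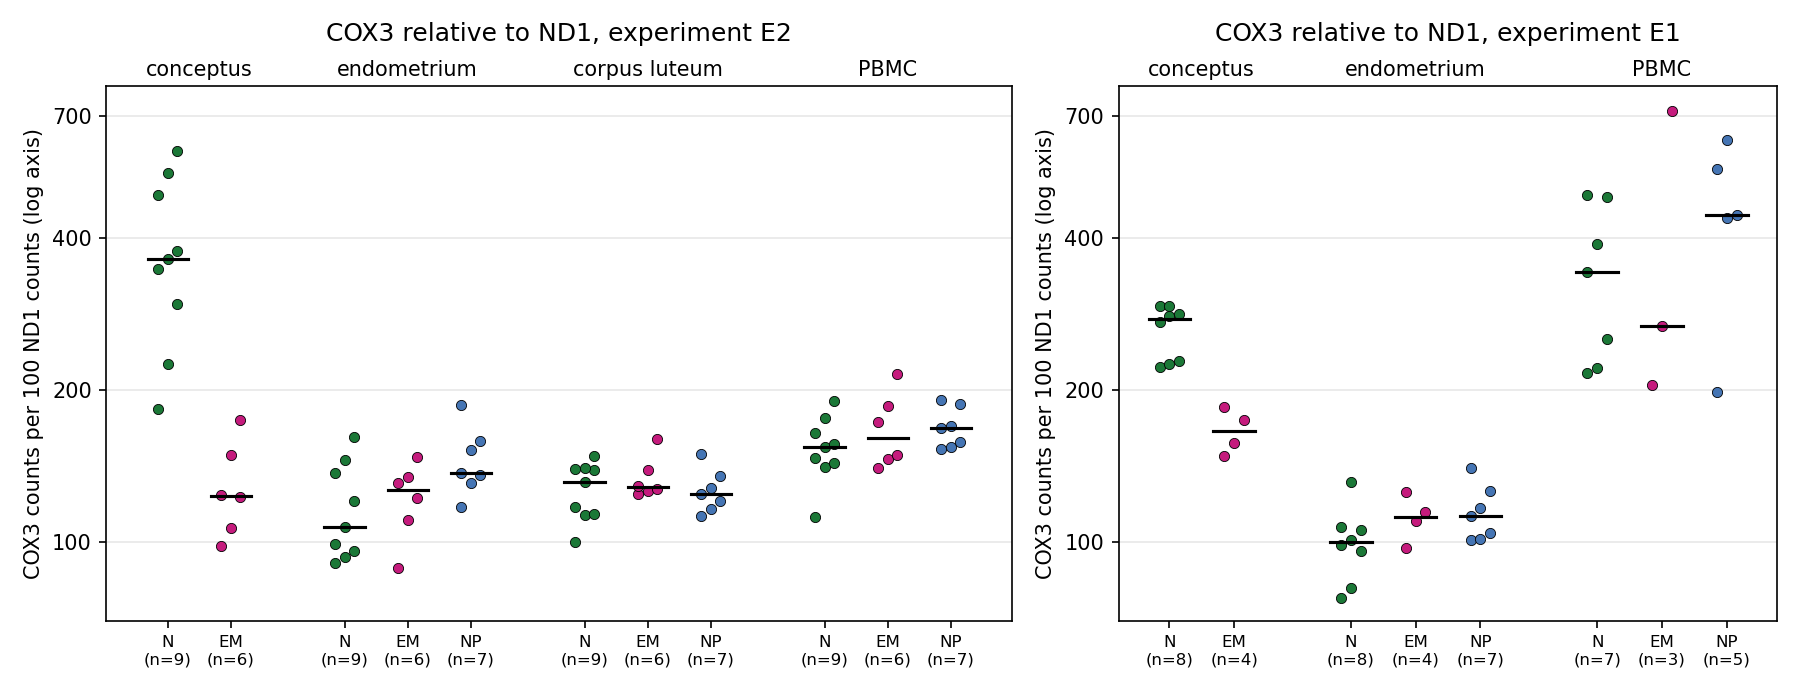
COX3 counts per 100 ND1 counts (log axis) in each library of E2 (left) and E1 (right) by tissue and pregnancy status. Points are libraries and bars are medians. The N conceptuses of E2 lie between 183 and 595 and the EM conceptuses between 98.1 and 174, and the E1 conceptuses separate in the same direction.

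Levels of different genes were compared per kilobase of gene, as counts per kilobase for each 1000 counts of the 9 genes. COX1 had the highest level per kilobase in 6 of 6 EM and 6 of 9 N conceptuses of E2, and COX3 the highest in the other 3. The median level per kilobase of ND1 was 98.9 in EM and 46.2 in N, that of CYTB 48.5 and 68.97, and that of ND5, the lowest gene in every conceptus library of both experiments, 9.68 and 22.1. In all groups of the endometrium and corpus luteum and of the E2 PBMC, COX1 was the highest per kilobase in every library and ND5 the lowest.

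Among the subunits of the same complexes encoded in the nucleus, more genes were called lower than higher. Of 75 nuclear respiratory genes tested in the E2 conceptuses, 42 fell in EM, 1 rose and 32 did not pass, with a median log2 fold change of -0.66 against 0.21 over all genes tested. A fall was called for 27.7% of all genes. In E1, 48 of 72 fell and 1 rose, with a median of -0.60 against -0.03 over all genes, beside 21.7% of all genes. The number called in either direction was 43 in E2 and remained 43 when the mitochondrial genes were left out of the library sizes. It ran from 32 (without S49 or without S58) to 59 (without S55) with single E2 libraries left out, and in E1 from 20 without S3 to 60, against 49 with all libraries.

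By complex, 21 of 37 nuclear complex I genes fell in E2 and 23 of 37 in E1. NDUFV1, which holds the NADH site, fell by 1.27 ± 0.26 on the log2 scale in E2 (SE; edgeR adjusted p = 0.000481). NDUFV3, an accessory subunit, fell by 1.08 ± 0.16 in E2 but was not called in E1, where its log2 fold change was -0.45 ± 0.20 (edgeR adjusted p = 0.0726). In complex III, 5 of 9 fell in E2 and 8 of 9 in E1, among them UQCRC1, a core protein, with a log2 fold change of -0.95 ± 0.24 in E2, and CYC1 (cytochrome c1), with -0.98 ± 0.26.

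In complex IV, whose mitochondrially encoded subunits form the catalytic core, 3 of 10 nuclear genes fell in E2 and 7 were not called, a share close to the 27.7% of all genes called lower, and 4 of 8 fell in E1. Those of E2 were COX5A (log2 fold change -0.84 ± 0.25 in E2), COX7A2 (-0.73 ± 0.27) and COX8A (-0.64 ± 0.25). In complex V, 11 of 15 fell in E2 and 12 of 14 in E1. ATP5F1A and ATP5F1B, the alpha and beta subunits of the catalytic head, fell by 1.24 ± 0.23 and 1.23 ± 0.25 on the log2 scale in E2, and ATP5MC1, which encodes the c subunit of the rotor ring, by 1.56 ± 0.32. Complex II, which has no mitochondrially encoded subunit, was mixed: SDHD rose in both experiments, by 0.71 ± 0.16 in E2 and 0.67 ± 0.20 in E1, while SDHA fell by 0.45 ± 0.17 and 0.51 ± 0.15.

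**Figure D5:**
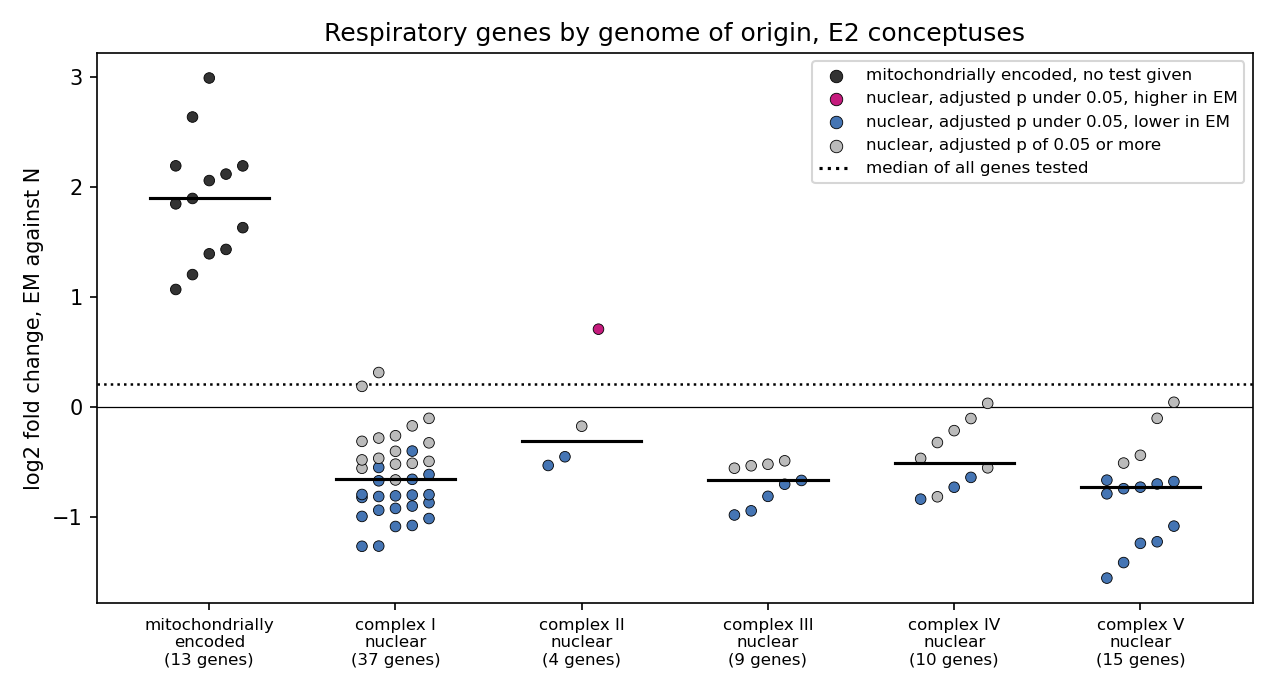
Log2 fold change of EM against N in E2 conceptuses for the 13 mitochondrially encoded genes and for the nuclear genes of each respiratory complex. Points are genes, bars are medians and the dotted line is the median of all genes tested (0.21). The mitochondrially encoded genes lie between 1.07 and 2.99, while the median of all 75 nuclear genes is -0.66.

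Mitochondrial DNA is copied, transcribed and processed by nuclear gene products. Of 29 genes of this kind tested in E2, 10 (34.5%) fell and 4 rose, beside 27.7% and 38% of all genes, with a median of -0.44. POLRMT, the mitochondrial RNA polymerase, fell by 1.55 ± 0.21 on the log2 scale (SE; edgeR adjusted p = 2.05e-05), POLG, the catalytic subunit of the mitochondrial DNA polymerase, by 1.09 ± 0.15, and SUPV3L1, a helicase of mitochondrial RNA decay, by 0.82 ± 0.14. In E1, POLRMT fell by 0.97 ± 0.18 and POLG by 0.59 ± 0.17, with 6 of 28 genes lower and 0 higher. The share lower, 21.4%, was that of all genes of E1 (21.7%). ELAC2, which cuts the 3′ ends of transfer RNAs, fell by 1.07 ± 0.20 in E2 and 1.04 ± 0.23 in E1.

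Of the 15 genes of a mitochondrial mass list (matrix, membrane and import proteins), 14 (93.3%) fell in E2 and 9 of 14 (64.3%) in E1, beside 27.7% and 21.7% of all genes. CS (citrate synthase) fell by 1.80 ± 0.26 on the log2 scale in E2, TOMM40, the import channel of the outer membrane, by 2.01 ± 0.31, IMMT, a protein of the cristae junctions, by 1.32 ± 0.20 and VDAC1, the outer membrane pore, by 1.17 ± 0.18. The summed level of this list was 1347 to 3057 CPM in EM and 4032 to 4733 CPM in N, without overlap.

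Of 35 respiratory assembly genes 13 (37.1%) fell and 2 rose in E2, and 8 of 31 (25.8%) fell and 1 rose in E1, beside 27.7% and 21.7% of all genes called lower. BCS1L, which assembles complex III, fell by 1.79 ± 0.31 on the log2 scale in E2. Of 11 mitophagy genes, which serve the removal of mitochondria, 6 (54.5%) rose and 3 fell in E2, beside 38% of all genes called higher, with CALCOCO2 at a log2 fold change of 2.78 ± 0.33, SQSTM1 at 1.35 ± 0.19 and BNIP3L at 1.38 ± 0.24. In E1, 3 of 10 rose, 1 fell and 6 were not called, beside 25.4% of all genes called higher, and the 3 were CALCOCO2, SQSTM1 and BNIP3L, at 2.93 ± 0.25, 1.25 ± 0.13 and 0.94 ± 0.21. Of 10 regulators of mitochondrial biogenesis 2 (20%) rose and 4 (40%) fell in E2, beside 38% and 27.7% of all genes. Of 9 in E1, 2 (22.2%) rose and 3 (33.3%) fell, beside 25.4% and 21.7%. SIRT3, a mitochondrial deacetylase, had a log2 fold change of 1.89 ± 0.37 in E2, and PPRC1, a coactivator of the PGC-1 family, -1.66 ± 0.23.

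Across tissues of normal pregnancy in E2, the corpus luteum had the largest 9-gene share. It held 6.49% to 10.4% with a median of 8.27%, above PBMC at 1.94% to 3.55% with a median of 3.21%, and these ranges did not overlap. The conceptus (median 2.36%) and the endometrium (0.806% to 4.08%, median 1.81%) followed, and neither differed from its neighbour in the order beyond the spread. In embryo mortality the conceptus came first, with a median of 12.8%, and overlapped with the corpus luteum at 8.07% to 10.9%. PBMC at 2.87% to 3.29% and endometrium at 1.54% to 2.70% lay below, without overlap. In non-pregnant cows the corpus luteum held 5.24% to 10.8%, PBMC 2.48% to 3.46% and endometrium 1.69% to 7.10%.

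Of the 6 EM conceptuses of E2, 6 had a larger share than any PBMC library, 5 than any endometrium and 4 than any corpus luteum, and 6 exceeded every endometrium once S69 (NP, 7.10%) was left out. The corpus luteum count was still 4 without S109 and S121. In E1, 2 of 4 EM conceptuses exceeded every endometrium and 0 of 4 every PBMC library, where 1 NP library each, S31 and S47, had the highest maternal value. Without S31 the highest endometrium was at 5.40% and 4 of 4 EM conceptuses lay above it, and without S47 the highest PBMC library was at 26.04% and 2 of 4 lay above it.

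Within the E2 maternal tissues the 9-gene share overlapped between N, EM and NP in all comparisons. In the corpus luteum the ratio of means was 1.13 for EM to N, 0.912 for N to NP and 1.03 for EM to NP, with S109, the library low in steroidogenic markers, holding the lowest share (5.24%). Without S109 the ratios to NP were 0.854 for N and 0.961 for EM, without S121 the EM ratios were 1.15 to N and 1.05 to NP, and without both EM to NP was 0.983. In PBMC the ratios were 1.02, 1.02 and 1.05. In the endometrium they were 1.05 for EM to N, 0.643 for N to NP and 0.674 for EM to NP, and the latter pair became 0.860 and 0.902 without S69, an NP library at 7.10%. The nuclear respiratory genes, which were tested, gave 0 calls in each of the maternal contrasts of E2 with edgeR and with DESeq2. Of 75 tested, 0 to 5 had an unadjusted p under 0.05. Over all genes edgeR called 0% to 0.00568% in the corpus luteum, 0%, 1.41% (N against NP) and 0.247% (EM against NP) in the endometrium and 0% in PBMC.

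In the E1 endometrium, which allows a test, the N group was low beside the others. The 9-gene share was 3.61%, 3.70%, 4.62% and 5.40% in EM, 2.09% to 3.96% with a median of 2.39% in N, and 3.104% to 4.896% in 6 NP libraries with S31 at 25.7%. The groups overlapped in all 3 comparisons, although 6 of 8 N libraries lay below the lowest NP library. For N against NP the log2 fold changes ran from -1.23 for ND2 to -1.91 for CYTB, and 0 of 9 genes were called (edgeR adjusted p from 0.0502 for ND5 to 0.126 for COX1), beside 2.52% of the 14084 genes tested. All 9 had an unadjusted p under 0.05, as had 2295 of all genes. DESeq2 called 3 of 9 as lower in N, beside 734 of the 14084 genes in either direction. Without S31 the log2 fold change of COX1 was -0.27 and that of ND5 -0.79, and 0 were called.

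For EM against N in the E1 endometrium, 0 of 9 genes were called by edgeR (1.38% of all genes were) and 1 by DESeq2 (595 of 14084 genes were). COX1 had a log2 fold change of 0.44 ± 0.64 (SE; edgeR adjusted p = 0.847). For EM against NP 0 of 9 were called by either tool (0.0426% of all genes by edgeR), with COX1 at -1.23 ± 0.70 (edgeR adjusted p = 0.613), or 0.17 without S31. In both comparisons 0 of 9 genes had an unadjusted p under 0.05.

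In the PBMC of E1 the share varied widely within groups. It was 5.35%, 11.4% and 17.6% in EM, 8.16% to 26.04% with a median of 16.8% in N, and 4.85%, 5.73%, 7.42%, 11.2% and 91.6% in NP. All groups overlapped. In the 3 comparisons 0 of 9 genes and 0% of all genes were called by edgeR, and 0 of 9 by DESeq2. Of the 9 genes, 0 had an unadjusted p under 0.05 for EM against N and 9 in each of the comparisons with NP. Of all 11501 genes tested, 758 had one for EM against N, 603 for N against NP and 374 for EM against NP. The log2 fold change of COX1 was -0.76 ± 1.57 (SE; edgeR adjusted p = 0.962) for EM against N, -5.03 ± 1.42 (edgeR adjusted p = 0.862) for N against NP and -5.79 ± 2.15 (edgeR adjusted p = 1.00) for EM against NP, and the latter pair turned to 1.45 and 0.73 without S47.

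The 9 genes varied together between libraries of a group. The correlation of their log2 CPM deviations from the group means over the 36 pairs of genes had a median of 0.92 in the E2 conceptus (15 libraries), 0.96 in the endometrium (22), 0.85 in PBMC (22) and 0.79 in the corpus luteum (22). The lowest pair was COX3 with ND5 in the corpus luteum, at 0.13, or -0.084 without S109 and S121, where the median over the pairs was 0.78. Genes of 1 library share its depth and scaling, so these values are descriptions.

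Among genes outside the 9 with a mean of at least 5 CPM, those whose deviations were most like those of the 9-gene sum were mostly the other mitochondrially encoded genes. In the E2 conceptuses they were ATP8 (r = 0.96), ND4L (0.95), ND6 (0.91), the kinase gene MAP3K8 (0.85) and ND3 (0.85), over 15 libraries and 10661 genes compared. In the endometrium ATP8, ND4L, ND3 and ND6 came first with r of 0.94 to 0.98, followed by MRPL23, a mitochondrial ribosomal protein gene (0.92), and in PBMC the same 4 genes, with r of 0.79 to 0.89, came before PABPC1 (0.74), which encodes a poly(A)-binding protein. In the corpus luteum, C7H5orf15 (0.84), NDFIP1, an adaptor of ubiquitin ligases (0.84), ND4L (0.83) and SDHAF4, an assembly factor of complex II (0.83), were among the first 5 genes, and ND3 was at rank 1717 of 11164 genes with r of 0.57. That order rested on S109 and S121. Without them ATP8 (0.82) came first, ND4L (0.77) was at rank 3 and ND3 (0.73) at rank 9, while C7H5orf15, NDFIP1 and SDHAF4 stood at ranks 24, 16 and 17 and ND6 at rank 1314.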

How the data were processed

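The authors deposited read counts per gene (unit: counts, not normalized), in 1 table per group for E2 and 1 per tissue for E1. Per the labels, libraries were made from total RNA with a stranded kit that selects poly(A) RNA, so counts of the short-tailed mitochondrial messengers also depend on that step. The study's methods give trimming and alignment of E2 to ARS-UCD1.2, the table names give UMD3.1 for E1, and the aligner, the counter and the treatment of reads that also match nuclear copies of mitochondrial DNA are not given in the sources used here. In each E2 table, 28 names are repeated with identical counts, and the repeats were dropped. A column named S77 stands in both the EM and the N endometrium table and each was assigned by its table's group. In E1, 2 libraries titled endometrium whose columns stand in the PBMC table (S32 and S33) were put in no group and entered no comparison, and 0 other per-sample columns were left unused.

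Shares are counts of a gene over all counts of the library. Log2 CPM used a prior count of 2. Each tissue and experiment was fitted over all genes with edgeR 4.0.16 (R 4.3.3; TMM factors, filterByExpr with a minimum count of 10, quasi-likelihood test, group only), and Benjamini-Hochberg adjusted p under 0.05 was called. All groups of a tissue shared 1 estimate of spread. Contrasts were EM against N, N against NP and EM against NP. Alternatives were DESeq2 1.42.0, RLE factors, looser filters (10 counts summed, or 1 count), a robust spread, library sizes without mitochondrial rows, other denominators or medians for the share, and each library left out, with added pairs (S4 and S5, S109 and S121) chosen after seeing the data. The EM against N fits were tested on simulated counts with 200 changed genes. Of the genes changed by a log2 of 1, 3% were recovered in PBMC of E1 and 14% in the E2 conceptus. The endometrium gave 38.4% in E2 and 47.5% in E1, and PBMC of E2 the most, 61.9%. For a log2 of 2 the range was 61.6% (PBMC, E1) to 94.7% (PBMC, E2). A contrast without calls can therefore hold changes of such sizes. Over 390 pairs of libraries of the same group, chi-square divided by its degrees of freedom was at least 4.27, so none were counted as repeats.

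The genes named are the 9 members, the other 4 mitochondrial genes, up to 4 genes per list with the smallest p in the E2 conceptus fit, and the 5 genes per E2 tissue most like the 9-gene sum; some genes picked this way are not reported here. The members, lists and markers were chosen with earlier results of these data known. No sequence is shown because none of these genes was matched to one here.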

Additional observations from a re-analysis of the deposited data

Results flagged for a closer look

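In 14 combinations of E1 group and measure with 4 to 10 libraries, the highest or lowest library was compared with the rest by Dixon's ratio, which chance passes in about 1 in 20 groups, and 2 stood apart, both on the high side of the 9-gene share. In the E1 endometrium the NP library S31 held 25.7% against 3.104% to 4.896% in the other NP libraries. In the PBMC of E1 the NP library S47 held 91.6%. Its summed leukocyte marker level of 232 CPM is taken over a total that includes these counts, so it does not show a lack of leukocyte RNA.

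The E1 tables also list 24 mitochondrial rows that hold no protein gene. The pair of these longer than 500 bases was at 0 in 46 of 48 E1 libraries. It held 128032 counts in the PBMC library S37 (N) and 95764 in S48 (NP). All 24 rows together took 0.936% of the counts of S37 and 0.643% of those of S48.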

How the results depend on the processing

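No paired analysis was made, because the sample labels used here do not say which libraries come from the same cow. The S numbers name libraries, and the name S77 stands in both the EM and the N endometrium table of E2. The calls of the 9 genes in E1 conceptuses, 9 of 9 higher, and the direction of each of the 13 mitochondrial genes there were the same under all alternatives and with each library left out. RLE factors and DESeq2 moved the median of all E1 conceptus genes from -0.03 to 0.08 and 0.09, and the nuclear respiratory genes called there ran from 34 to 57 over the processing alternatives, and from 20 (without S3) to 60 over left-out libraries, with 62 without S4 and S5 together, an alternative chosen after seeing the data. In the E1 endometrium DESeq2 called 1 of the 9 genes for EM against N and 3 for N against NP, beside 595 and 734 of 14084 genes. Left-out libraries gave 0 to 4 of the 9 genes for N against NP with edgeR, 4 without S23. The log2 fold change of COX1 for EM against NP turned from -1.23 to 0.18 with DESeq2 and ran from -1.39 to 0.17 over left-out libraries. In PBMC of E1, COX1 ran from -5.35 to 1.45 for N against NP and from -6.21 to 0.73 for EM against NP, turning in sign without S47 alone. The cause of the DESeq2 differences was not tested. The E2 conceptus ratio of the 9-gene share was 4.37 to 5.91 under other denominators or group medians. Among all single-gene values, left-out libraries ended 19 calls, made 9 and turned 3 values, with 992 kept.

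The E1 libraries S5 and S4 hold 106785 and 224034 counts, so their single-gene values carry more counting error than those of the other conceptuses. EM groups held 3 to 6 libraries. Shares are relative, so a larger mitochondrial share lowers all other shares of a library.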

Other observations

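The E1 libraries S32 and S33 are titled endometrium but are described by, and counted in, the PBMC table, so they entered no comparison. Their 9-gene shares were 17.03% and 8.84%, inside the ranges of the N and EM libraries of the PBMC table. Both were above the 5.40% of the highest E1 endometrium other than S31. Among NP, 17.03% was inside the range only through S47 (91.6%), since the other NP libraries of PBMC ran from 4.85% to 11.2%. The summed leukocyte markers of S32 and S33 were 5264 and 7196 CPM.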
